A study of Rattus norvegicus with 12 samples.

Results

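The step from day 3 to day 7 was examined in excisional skin wounds of diabetic rats. It rests on 8 of the 12 RNA sequencing libraries of the series, namely the 4 libraries of day 7 and the 4 of day 3, chosen by the day in the sample labels and paired within each treatment. All libraries came from male SD rats made diabetic with streptozotocin (STZ), in which a circular full-thickness wound was punched in the dorsal skin. The wounds received normal saline (control), the dried snail mucus glue d-SMG of A. fulica, its sulfated glycosaminoglycan s-GAG, or the commercial alginate dressing Alg. Each treatment and day is held by 1 library, and the labels do not say whether a library is 1 rat or a pool, so that the 4 treatments serve as the replicates of a day and the change within a single treatment has no replicate check. The rats were euthanized when tissue was taken, so that the day 3 and day 7 libraries of a treatment do not come from the same animal.

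In a healing skin wound, early inflammation by neutrophils and monocytes gives way to granulation tissue, in which fibroblasts lay down collagen and other matrix, new vessels grow in, and keratinocytes migrate from the wound edge to cover the defect. Interferon response genes, acute-phase and complement genes, and chemokines belong to the early phase, and fibrillar collagens, tenascins, and lysyl-modifying enzymes to the later one. In diabetes this progression is known to be slow and often incomplete.

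The read totals on genes ranged from 14928702 (control, day 7) to 38302461 (s-GAG, day 7) among the 8 libraries, and levels are given as CPM, read counts relative to the TMM-scaled library size, of which 1 CPM stood for 11.9 to 40.2 reads. The d-SMG library of day 3 stood apart from the others, with a TMM factor of 0.709, the lowest of the 12. The tissue is labelled skin, but the 31 skeletal muscle markers, all measured, summed to 311906 CPM in this library and to between 53908 and 103088 CPM in the other day 3 libraries. Its 30 measured markers of differentiated and cornified keratinocytes summed to 12.8 CPM, against 582 to 1049 CPM in the other day 3 libraries. Of the 25 tested markers 7 were at 0 reads in this d-SMG library. With the skeletal muscle sum or the keratinocyte sum as a covariate, the fit called 0 genes, and 263 and 199 genes had an unadjusted p below 0.05. Values without the d-SMG treatment are given for the muscle and keratinocyte lists below. In bulk tissue, fewer cells of a type and less RNA per cell cannot be told apart.

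No gene passed the test of day 7 against day 3. The quasi-likelihood test of edgeR, fitted over all 12 libraries with treatment and day as terms, called 0 of 15354 genes (0%) at a false discovery rate (FDR) of 0.05, the lowest FDR being 0.998, and DESeq2 called 0 as well. At an unadjusted p below 0.05, edgeR gave 248 genes (1.62% of those tested), 131 of them higher (0.853%) and 117 lower on day 7 (0.762%), and DESeq2 gave 452. The count of 248 lies below the 767.7 genes that uniform p-values would give. It became 901 without the s-GAG treatment and 906 without the s-GAG library of day 3 alone, and it was 85 without the control treatment and 157 without d-SMG. Leaving out the control library of day 3 or of day 7 gave 132 and 122 genes, the s-GAG library of day 7 gave 388, and the Alg library of day 7 gave 529. None of these fits called a gene at the FDR. The genes described below are therefore not called, and their values are given as levels in single libraries.

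The size of the change differed between treatments. The share of genes that differed by 2-fold or more between day 3 and day 7 was 32.3% in d-SMG, 23% in the control, 11.3% in Alg, and 8.51% in s-GAG. Across the 15354 genes, which are not independent replicates, the changes of control and d-SMG had a Pearson correlation of 0.27 (Spearman 0.36), and those of the other 5 pairs of treatments lay between −0.18 and 0.00 (Spearman between −0.16 and 0.05). Higher levels on day 7 in all 4 treatments were found for 890 genes (5.8%) and lower levels in all 4 for 879 (5.72%). The 4 day 7 libraries all lay above the 4 day 3 libraries for 126 genes (0.821%) and all below for 160 (1.04%). These shares are the background for the counts of list members below. The median log2 change of all tested genes was −0.02, so that the list medians below can be read against nearly 0.

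**Figure D1:**
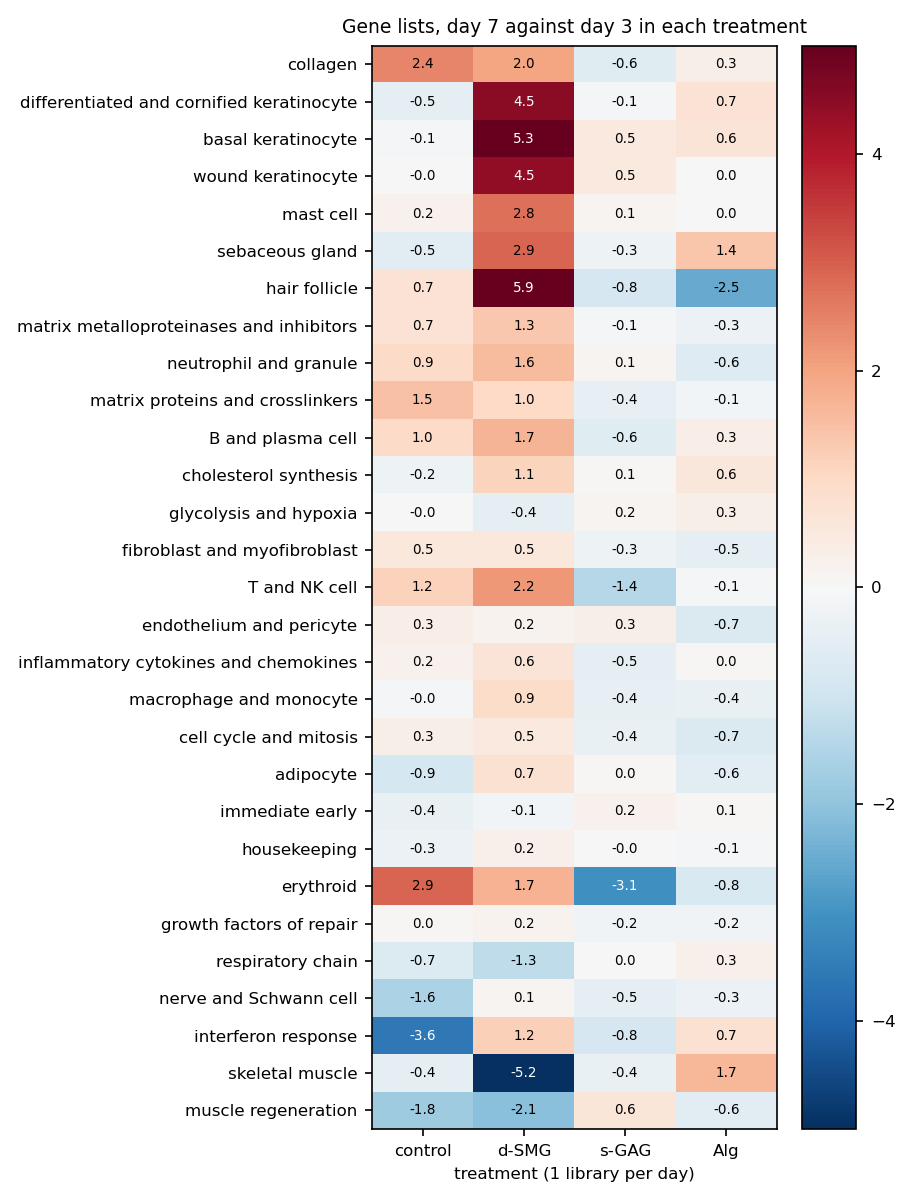
Median log2 ratio of day 7 to day 3 (color and number) for 29 gene lists (rows, ordered by the fitted median change) in the 4 treatments (columns), 1 library per treatment and day, with the color scale ending at 5 in each direction. The collagen row is 2.4 and 2.0 in control and d-SMG and −0.6 in s-GAG, the interferon response row is −3.57 in the control and 1.205 in d-SMG, and the d-SMG column holds the highest and lowest values for keratinocytes and skeletal muscle.

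Collagen genes encode the fibers of the new dermis. In the fit over all 12 libraries they formed the list with the highest median among the lists, at 0.90 on the log2 scale. Of its 23 members, all measured and tested, 22 had a fitted change above 0, 3 were higher at the unadjusted p, none was called, and 1 was higher in all 4 treatments. The size depended on the treatment. The summed level went from 12021 CPM on day 3 to 75955 CPM on day 7 in the control and from 12424 to 48001 CPM in d-SMG, whereas it was 31237 and 15453 CPM in s-GAG, and 17670 and 19721 CPM in Alg. The members' median log2 ratio was 2.42 in the control, 1.97 in d-SMG, 0.28 in Alg, and −0.62 in s-GAG, where 4 of 23 were higher on day 7. The s-GAG wound thus had the highest collagen level of the 4 on day 3 and the lowest on day 7. Without the control treatment the fitted median was 0.34, and without s-GAG it was 1.62. It was 0.54 without d-SMG and 0.53 with the skeletal muscle sum as a covariate. The first rank was not kept in these settings. The basal keratinocyte median was 1.24 without the control and 0.99 with the muscle covariate, and the skeletal muscle median was 0.65 without d-SMG.

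The main fibrillar genes followed this split. Col1a1, a chain of type I collagen, was at 1624, 1655, 6819, and 2903 CPM on day 3 and at 15077, 7554, 2168, and 3552 CPM on day 7 in the control, d-SMG, s-GAG, and Alg, the order used for all values in this text. Col3a1, the type III collagen of early granulation tissue, was at 3810, 3284, 8967, and 4022 CPM on day 3 and at 18282, 13229, 3464, and 4905 CPM on day 7. Both genes were higher on day 7 in 3 of 4 treatments, by little in Alg, and lower in s-GAG, and their fitted log2 changes were 0.90 ± 0.75 and 0.72 ± 0.68 (SE).

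Col7a1 differed from this pattern. It encodes the anchoring fibrils that hold the epidermis to the dermis, and its loss causes dystrophic blistering of the skin. Its level was 129.6, 44.1, 202, and 175 CPM on day 3 and 349, 395, 359.9, and 556 CPM on day 7. Every day 7 library lay above every day 3 library, s-GAG included, and the fitted log2 change was 1.66 ± 0.48 (SE, unadjusted p = 0.00669, FDR = 0.998). Over the leave-outs and other settings tried, this change lay between 1.0 and 1.92. Col12a1, which decorates the surface of collagen fibrils, had the largest single ratio of the list, going from 37.0 to 3364 CPM in the control. In the other treatments it was at 134, 255, and 122 CPM on day 3 and at 992, 214, and 429 CPM on day 7. Col16a1 was at 168, 97.4, 608, and 331 CPM on day 3 and at 1628, 927, 465, and 474 CPM on day 7, again with the s-GAG wound lower.

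**Figure D2:**
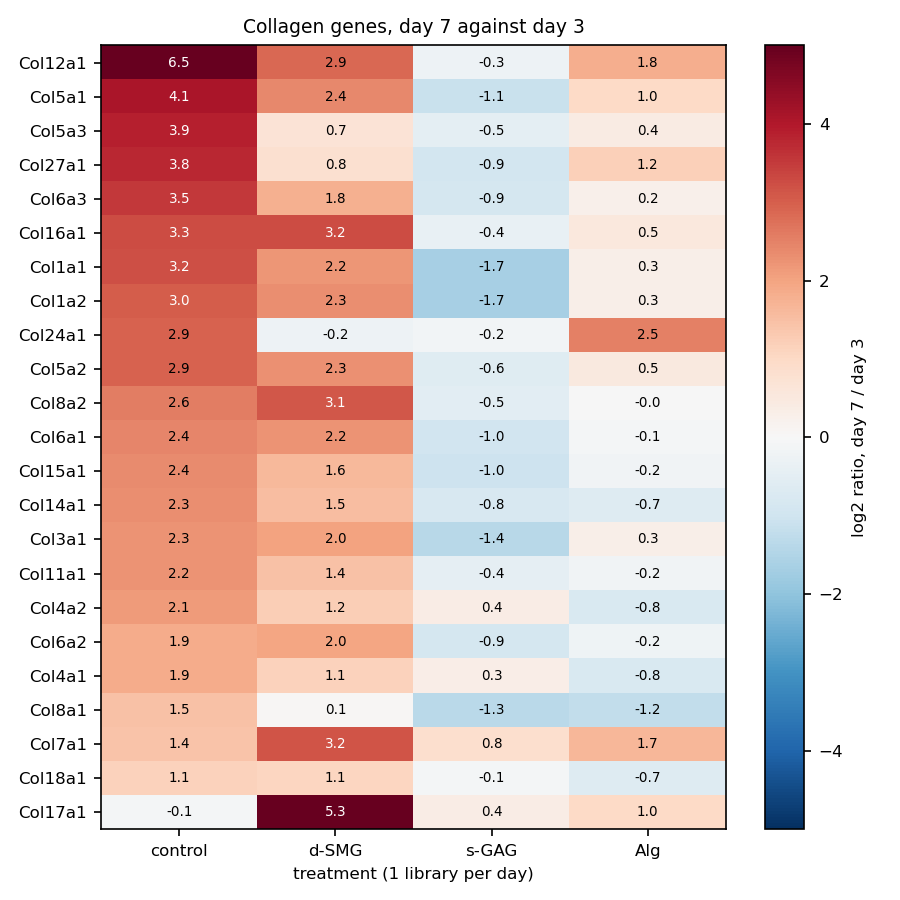
Log2 ratio of day 7 to day 3 for the 23 collagen genes (rows, ordered by the control) in the 4 treatments (columns), 1 library per treatment and day. The control and d-SMG columns are above 0 for 22 of 23 genes each, the s-GAG column for 4, and Col7a1 is the gene above 0 in every column.

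Other matrix genes split in the same manner. Of 39 matrix proteins and crosslinkers, 30 had a fitted change above 0, with a median of 0.46, 4 were higher and 1 lower at the unadjusted p, and the median ratio was 1.48 and 0.99 in control and d-SMG and −0.41 and −0.14 in s-GAG and Alg. Tnn, the tenascin of the provisional matrix in wounds and tumors, was at 35.4, 37.6, 189, and 34.5 CPM on day 3 and at 1311, 837, 189, and 376 CPM on day 7. It stayed level in s-GAG, where it was already high on day 3, and on day 14 the levels were 126, 96.8, 32.2, and 74.4 CPM. Fbn2, a fibrillin of developing elastic fibers, was at 1.96, 1.51, 7.80, and 2.34 CPM on day 3 and at 122, 34.4, 7.61, and 15.7 CPM on day 7, likewise flat in s-GAG. Thbs2, a matricellular inhibitor of vessel growth, was at 142, 44.1, 181, and 91.6 CPM on day 3 and at 892, 277, 145, and 168 CPM on day 7.

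Against the direction of its list, Has1, a synthase of hyaluronan, was at 2.17, 4.12, 1.65, and 6.05 CPM on day 3 and at 0.271, 1.29, 1.29, and 1.06 CPM on day 7. All day 7 libraries lay below all day 3 libraries, with a log2 change of −1.99 ± 0.55 (SE, unadjusted p = 0.00545). Of the 39 genes 4 were lower in all 4 treatments, and Has1 was the only one of them without overlap between the days.

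The enzymes that remodel this matrix had median log2 ratios of 0.74 and 1.34 in the control and d-SMG and of −0.08 and −0.30 in s-GAG and Alg. Of 29 measured metalloproteinases, plasminogen activators, and inhibitors 27 were tested, of which 20 had a fitted change above 0 and 4 were higher at the unadjusted p. Mmp8, the neutrophil collagenase, was at 0.543, 0.168, 0.285, and 0.341 CPM on day 3 and at 2.99, 2.62, 0.796, and 0.665 CPM on day 7. Its days did not overlap, although the day 3 values rest on few reads. Adam12, a membrane protease of activated fibroblasts, was at 26.3, 35.0, 60.1, and 28.5 CPM on day 3 and at 309, 152, 33.0, and 59.9 CPM on day 7. The tissue plasminogen activator Plat was at 58.6, 48.6, 51.7, and 59.7 CPM on day 3 and at 149, 123, 72.8, and 58.7 CPM on day 7, and thus flat in Alg. Mmp16 had a log2 change of 1.52 ± 0.67 (SE, unadjusted p = 0.0468) and was lower in s-GAG, with 2.05 and 1.24 CPM.

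Markers of fibroblasts had median log2 ratios of 0.51 and 0.53 in control and d-SMG and of −0.26 and −0.46 in s-GAG and Alg. Of 21 markers of fibroblasts and myofibroblasts 14 had a fitted change above 0, with a median of 0.14. In d-SMG 18 of the 21 were higher on day 7. Their summed level in d-SMG nevertheless went from 31746 CPM on day 3, the highest of the 4, to 6237 CPM on day 7. The skeletal muscle sum moved with it in d-SMG, and its part in the fibroblast sum was not tested. Inhba, the activin A subunit made by wound fibroblasts, was at 12.4, 10.3, 28.8, and 19.0 CPM on day 3 and at 389, 61.9, 27.5, and 57.4 CPM on day 7. A separate list of growth factors of repair had a median of −0.20. Of its 30 tested members 13 had a fitted change above 0, and 1 was higher and 0 lower at the unadjusted p. From that list, Bmp1, the protease that cleaves procollagen, was at 56.7, 52.6, 71.0, and 81.5 CPM on day 3 and at 175, 117, 69.0, and 101 CPM on day 7. Wnt5a was at 4.30, 1.60, 16.3, and 10.8 CPM on day 3 and at 49.2, 15.8, 11.5, and 10.6 CPM on day 7. Inhba, Bmp1, and Wnt5a were flat or lower in s-GAG. The transforming growth factor Tgfb3, from the same list as Bmp1 and Wnt5a, was lower in all 4 treatments without overlap. It had 31.7 to 39.8 CPM on day 3 and 19.2 to 30.9 CPM on day 7.

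**Figure D3:**
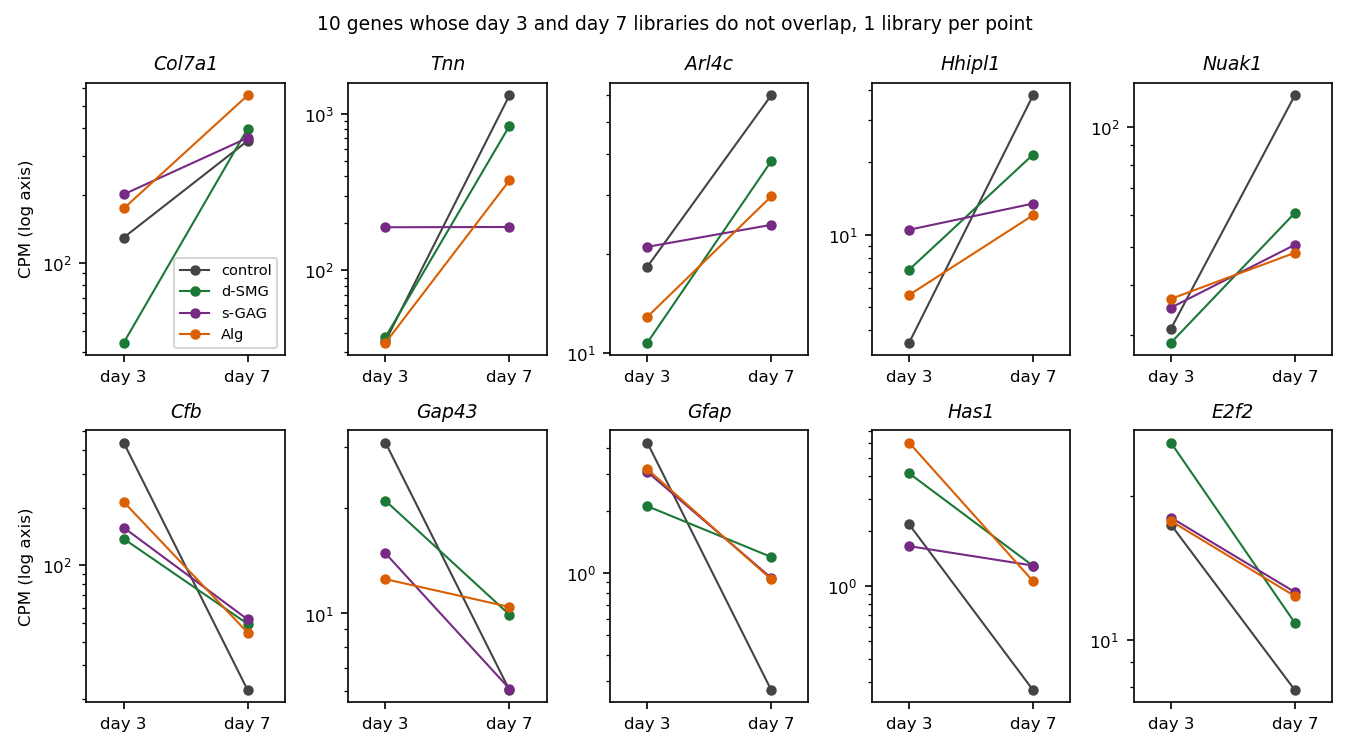
CPM (log axes) on day 3 and day 7 in the 4 treatments (colored lines, 1 library per point) for 5 genes whose day 7 libraries all lay above the day 3 libraries (top) and 5 whose day 7 libraries all lay below (bottom). The Tnn line of s-GAG is level at 189 CPM, and Cfb lies between 138 and 437 CPM on day 3 and between 22.3 and 52.2 CPM on day 7.

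The 15 genes with the smallest p on the higher side, none of them called, had varied known roles. Kif26b, a kinesin of Wnt5a signalling, was at 3.67, 2.18, 12.4, and 4.68 CPM on day 3 and at 62.1, 40.5, 10.7, and 18.4 CPM on day 7. The collagen-binding integrin chain Itga11 was at 6.89, 12.8, 23.3, and 14.4 CPM on day 3 and at 168, 61.1, 20.8, and 32.1 CPM on day 7. The days overlapped in both, through the s-GAG wound. The small GTPase Arl4c was at 18.2, 10.8, 20.9, and 12.9 CPM on day 3 and at 60.0, 38.0, 24.4, and 29.7 CPM on day 7, Hhipl1 at 3.55, 7.14, 10.5, and 5.61 CPM and then at 37.9, 21.5, 13.5, and 12 CPM, and the kinase Nuak1 at 31.1, 28.7, 35.2, and 37.0 CPM and then at 119.7, 60.7, 50.6, and 48.3 CPM. In these 3 genes the days did not overlap, and the smallest step was that of s-GAG for Arl4c and Hhipl1 and that of Alg for Nuak1.

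Lgi3 had the smallest p of the higher genes (0.00355, log2 change 2.10 ± 0.54 SE), but its day 3 levels of 0.167 to 0.780 CPM rest on 3 to 16 reads a library. The chondroitin synthase Chsy3, the histone variant Macroh2a2, Nsg1, Plekhg4, and Dclk2 had log2 changes of 2.03, 2.72, 1.63, 2.73, and 1.01, and among these Dclk2 alone was free of overlap. The transcription factor Sox4 was higher in all 4 treatments but by 0.02 in Alg. Lbp, the lipopolysaccharide-binding acute-phase protein, was at 14.6, 6.22, 11.8, and 13.4 CPM on day 3 and at 216, 55.3, 11.4, and 23.5 CPM on day 7.

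Among the 15 genes on the lower side was Cfb, the complement protease gene of the alternative pathway. It was at 437, 138, 158, and 214 CPM on day 3 and at 22.3, 49.5, 52.2, and 44.6 CPM on day 7. Each treatment was lower on day 7 and the days did not overlap, with a log2 change of −2.42 ± 0.64 (SE, unadjusted p = 0.00384, FDR = 0.998) and a range of −2.84 to −1.64 over the settings tried. On day 14 it was at 125, 166, 120.1, and 660.3 CPM. Lilrb3, an inhibitory receptor of myeloid cells, had the smallest p of all genes (0.00202), with 36.4, 20.9, 26.1, and 5.66 CPM on day 3 and 3.19, 9.30, 1.29, and 2.46 CPM on day 7.

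The 15 lower genes also held Gap43, Gfap, Nes, Tnnt2, and Tubb6. Gap43, the growth cone protein of regrowing axons and Schwann cells, was at 30.8, 21.0, 14.9, and 12.5 CPM on day 3 and at 6.04, 9.92, 6.10, and 10.4 CPM on day 7. Gfap, a filament of nonmyelinating Schwann cells in skin, was at 4.26, 2.10, 3.07, and 3.17 CPM on day 3 and at 0.271, 1.19, 0.945, and 0.931 CPM on day 7. Neither gene overlapped between the days. The filament gene Nes was at 1014, 2071, 475, and 694 CPM on day 3 and at 604, 327, 317, and 248 CPM on day 7, Tnnt2, the troponin of immature muscle, at 1164, 1670, 427, and 632 CPM and then at 247, 166, 454, and 224 CPM, and the tubulin Tubb6 at 438, 777, 81.1, and 343 CPM and then at 127, 109, 107, and 90.5 CPM. Tnnt2 and Tubb6 were slightly higher in s-GAG, and Nes was lower in all 4 treatments. The d-SMG library of day 3 was the highest for all 3 genes, and without d-SMG the log2 changes of Nes, Tnnt2, and Tubb6 were −0.90, −1.17, and −1.17, against −1.35, −1.76, and −1.65 with it.

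Of the others, Sox11, Gja5, Gabbr2, E2f2, Hsf2bp, and Rras2 were lower in all 4 treatments, and Gabbr2 and E2f2 were free of overlap. Hsf2bp, also without overlap, had a log2 change of −2.65 ± 0.66 (SE), with 1.54 CPM on day 3 and 1.12 CPM on day 7 in s-GAG. Rap1gap and Rras2 had log2 changes of −1.46 and −1.06 and overlapped between the days.

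The nerve and Schwann cell list as a whole had a median of −0.52. Of 14 members tested 10 had a fitted change below 0 and 5 were lower in all 4 treatments, Gap43 and the myelin genes Cnp, Pmp22, and Prx being the leading members. The list sum was 333, 203, 234, and 339 CPM on day 3 and 122, 232, 209.9, and 254 CPM on day 7, so that d-SMG was the exception.

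Skeletal muscle genes gave the most uneven picture. Of 31 markers 30 had a fitted change below 0, with a median of −0.91, and none passed the unadjusted p. The sum was 103088, 311906, 55909, and 53908 CPM on day 3 and 77591, 7447, 58461, and 182022 CPM on day 7. In d-SMG all 31 were lower and in Alg all 31 were higher on day 7. Without d-SMG the fitted median turned to 0.65. Acta1, the actin of mature fibers, was at 3367, 13189, 3454, and 2421 CPM on day 3 and at 2479, 160.0, 1681, and 3749 CPM on day 7. The titin cap gene Tcap was at 5225, 8378, 895, and 963 CPM on day 3 and at 851, 135, 958, and 3461 CPM on day 7. The muscle regeneration list, with a median of −0.96, had 16 of 18 members below 0 and 2 lower at the unadjusted p. Its median log2 ratio was −1.77, −2.08, 0.60, and −0.58, and in s-GAG 12 of 18 were higher. Without d-SMG the median of this list was −0.39. The 2 genes were the embryonic light chain Myl4, with 125, 154, 59.0, and 44.3 CPM and then 39.0, 36.9, 56.6, and 32.5 CPM, and Mymk, the myomaker of myoblast fusion, with 16.7, 10.3, 1.88, and 6.29 CPM and then 2.58, 2.24, 3.06, and 2.59 CPM. The satellite cell gene Pax7 was at 0.0477 CPM in the d-SMG library of day 7, and Cdh15 had ratios of −3.31 and −4.74 in control and d-SMG and of −0.34 and 0.22 in s-GAG and Alg. Genes of the respiratory chain had median log2 ratios of −0.69, −1.29, 0.04, and 0.25, against −0.44, −5.22, −0.37, and 1.66 for the muscle markers. The signs were the same except in s-GAG. All 23 respiratory chain genes had a fitted change below 0, with a median of −0.44, which was −0.14 without d-SMG. In Alg 22 of 23 were higher, and Cycs was at 249 CPM on day 3 and 71.9 CPM on day 7 in d-SMG. The glycolytic gene Gapdh, often taken as a reference, was at 439, 854, 139, and 218 CPM on day 3 and at 156, 118, 146, and 344 CPM on day 7.

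**Figure D4:**
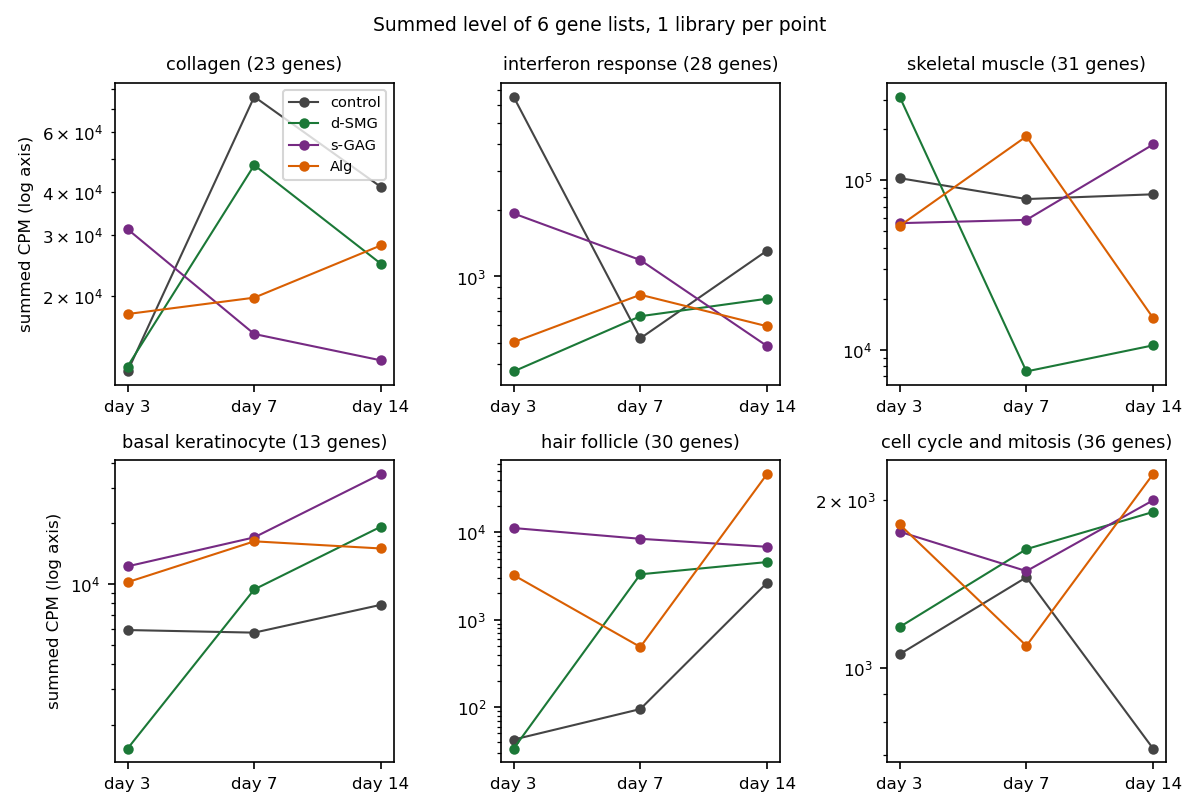
Summed CPM (log axes) of 6 gene lists on days 3, 7, and 14 in the 4 treatments (colored lines, 1 library per point). Between day 3 and day 7 the collagen sum is higher in control and d-SMG and lower in s-GAG, the interferon sum of the control goes from 6551 to 524 CPM, and the skeletal muscle sum of d-SMG goes from 311906 to 7447 CPM.

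Interferon response genes were lower on day 7 in the control and s-GAG wounds and higher in d-SMG and Alg. Interferons induce antiviral genes through the factor complex that binds the interferon-stimulated response element (ISRE). The 28 genes of the list, all measured, summed to 6551, 370.4, 1933, and 503 CPM on day 3 and to 524, 659.8, 1188, and 826 CPM on day 7. The median log2 ratio was −3.57 in the control, where 27 of 28 were lower, −0.82 in s-GAG, where 27 were lower, and 1.205 and 0.75 in d-SMG and Alg, where 27 were higher in each. The fitted median of −0.71, with 27 of 28 below 0 and none at the unadjusted p, combines these opposite directions, and it was 0.14 without the control treatment. Gbp2, a guanylate-binding GTPase, was at 1220, 103, 402, and 132 CPM on day 3 and at 100.4, 163, 212, and 126 CPM on day 7. Bst2 (tetherin) was at 174, 44.5, 60.5, and 35.8 CPM and then at 36.7, 37.4, 28.9, and 41.2 CPM. Ifi27 was at 108, 28.9, 36.9, and 27.6 CPM and then at 21.7, 30.8, 18.3, and 27.9 CPM, and Oas2, a sensor of double-stranded RNA, at 24.1, 1.26, 6.94, and 1.46 CPM and then at 2.38, 2.53, 1.79, and 2.33 CPM. In each of these genes the control library of day 3 was the highest of the 8.

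The promoters of this list were searched for the core of the ISRE. Promoters of 250 bases before to 50 bases after the start were taken from RefSeq (GRCr8), which held 19 of the 28 genes and 11679 of the 15354 tested. The ISRE core GAAANNGAA, searched on both strands, was found in 14 of the 19 (73.7%), against 7.36% of the promoters of all tested genes and 9.5% of all 27457 promoters in the table. The promoters of Herc6, Irf9, Mx1, Oasl, and Stat2 held no match, nor did that of the chemokine Cxcl9 from outside the list. The list was made of known interferon response genes, so its high share is no independent finding. A match describes the letters only and is no evidence of binding. The stretches below run 5′ to 3′ on the strand of the gene, with each core match or overlapping pair in capitals. Those of Bst2, Gbp2, and Ifi27 belong to list members named above, and Cxcl10 is the chemokine with the smallest p in the comparison of the control with the dressed wounds.
Bst2 (chr16:18255059-18255123, minus strand): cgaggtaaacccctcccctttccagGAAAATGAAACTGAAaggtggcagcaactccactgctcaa
Gbp2 (chr2:234005672-234005730, plus strand): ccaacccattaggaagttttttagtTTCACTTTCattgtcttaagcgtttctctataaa
Ifi27 (chr6:128355118-128355261, plus strand): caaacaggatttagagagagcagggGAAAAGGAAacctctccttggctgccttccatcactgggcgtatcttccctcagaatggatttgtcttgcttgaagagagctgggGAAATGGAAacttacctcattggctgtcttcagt
Cxcl10 (chr14:15988816-15988856, plus strand): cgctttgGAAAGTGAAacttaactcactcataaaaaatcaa

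In Bst2 a pair of overlapping cores begins 131 bases before the start, and in Gbp2 the core lies 30 bases before it on the opposite strand. The ISRE core was not frequent among the genes with an unadjusted p below 0.05, at 3.85% of the higher and 5.81% of the lower promoters. In the same 2 sets the CCAAT box of NFY was found in 35.9% and 33.7% (37.6% of all tested), the CHR element TTTGAA in 16.7% and 14% (12.5%), the AP-1 site TGANTCA in 7.69% and 10.5% (5.39%), and the NF-kB site GGGANTTCC in 0 of 78 and 4 of 86 promoters (2.23%).

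Inflammatory mediators did not move as a group. Of 42 measured cytokines and chemokines 33 were tested, and of these 17 had a fitted change above 0 and 16 below, with a median of 0.04, and 3 were lower at the unadjusted p. The monocyte chemokines Ccl2 and Ccl7 were lower in all 4 treatments. Ccl2 was at 20.5, 15.5, 6.83, and 7.41 CPM on day 3 and at 3.05, 6.87, 4.10, and 4.86 CPM on day 7, and Ccl7 at 8.47, 5.97, 2.22, and 5.02 CPM and then at 1.15, 2.91, 0.945, and 2.39 CPM. The days overlapped in both. The s-GAG wound of day 3 lay below the d-SMG wound of day 7 for Ccl2, and below the d-SMG and Alg wounds of day 7 for Ccl7. The interferon-induced Cxcl9 was at 102, 13.7, 33.6, and 15.4 CPM and then at 13.4, 20.0, 9.60, and 9.31 CPM. The neutrophil chemokine Cxcl6 went the other way in the control, from 5.01 to 90.3 CPM.

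Of the inflammation genes discussed in the study, a list drawn up on these samples, Il1b and Nos2 were higher in all 4 treatments. Il1b was at 11.2, 4.87, 8.14, and 6.49 CPM on day 3 and at 27.5, 15.6, 8.71, and 8.51 CPM on day 7. Nos2, the inducible nitric oxide synthase, was at 11.6, 1.18, 2.85, and 1.90 CPM and then at 19.3, 4.96, 9.90, and 2.13 CPM. Tnf, Ccl5, Il18, and Tlr5 had fitted log2 changes of −0.40 ± 0.64, −0.01 ± 1.37, −0.08 ± 0.25, and 0.07 ± 0.30 (SE), all smaller than their errors.

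Leukocyte lists differed from each other. The macrophage and monocyte list had a median of 0.00, with 12 of 24 above 0, and its sum was 47685, 14984, 33524, and 24101 CPM on day 3 and 40767, 29409, 31567, and 21670 CPM on day 7. Arg1, the arginase of macrophages in repair, was the single member higher in all 4 treatments, at 7.97, 13.9, 8.82, and 7.85 CPM and then at 90.5, 57.0, 11.2, and 11.6 CPM. The scavenger and mannose receptors of the same cells, Cd163 and Mrc1, were both higher in d-SMG and s-GAG and lower in Alg. In the control Mrc1 was higher and Cd163 nearly level. Mrc1 was at 189, 211, 143, and 198 CPM on day 3 and at 479, 607, 189, and 63.0 CPM on day 7, higher in 3 treatments and lower in Alg. Cd163 was at 323, 422, 218, and 346 CPM and then at 307, 1007, 271, and 63.2 CPM. The T and NK cell list had a median of 0.08, with ratios of 1.16 and 2.16 in control and d-SMG and −1.43 in s-GAG, and 10 of 19 tested members were above 0. The neutrophil list, of which 13 of 24 genes were tested, had 11 above 0 and a median of 0.47. That median was 0.20 without d-SMG and 0.14 without the control. Its median log2 ratio was 0.94, 1.58, 0.12, and −0.65, with 5 of 13 higher in Alg. The neutrophil sum over 24 measured genes was 2674, 1458, 1097, and 647 CPM on day 3. On day 7 it was 1705, 2176, 542, and 674 CPM, and thus lower in the control and s-GAG. The mast cell list had 7 of 8 tested members above 0 and a median of 0.61, which was 0.19 without d-SMG.

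The repair genes of the study's text, likewise chosen on these samples, had 2 of 14 members at the unadjusted p, Col7a1 and Arg1. Vegfa, the angiogenic growth factor, was at 93.8, 237, 125, and 176 CPM on day 3 and at 100.2, 87.2, 118, and 136 CPM on day 7, and Vegfb had a log2 change of −0.51 ± 0.41 (SE). The changes of Tgfb1, Pdgfa, Pdgfb, Il10, Jak3, and Cd86 were −0.21 ± 0.31, −0.28 ± 0.61, −0.15 ± 0.32, 0.21 ± 0.68, 0.16 ± 0.34, and −0.30 ± 0.38 (SE). None of these exceeded its SE. The vessel list of 25 endothelial and pericyte markers had a median of 0.07, with 19 of 25 higher in s-GAG and 3 of 25 in Alg.

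Keratinocyte genes were higher on day 7 in the fit, and d-SMG supplied most of this. The basal list had a median of 0.81, with all 13 tested members above 0, and sums of 5901, 1521, 12216, and 10193 CPM on day 3 and 5728, 9387, 17018, and 16264 CPM on day 7. The basal sum of the control was level. Its cornified sum, over 30 measured genes, was 672 CPM on day 3 and 243 CPM on day 7, with 6 of the 25 tested genes higher. The medians of the basal, wound, and cornified lists without d-SMG were 0.29, 0.24, and 0.04. Krt16, a keratin of activated wound-edge epidermis, was at 27.8, 0.168, 32.6, and 35.5 CPM on day 3 and at 40.2, 107, 101, and 115 CPM on day 7. All day 7 libraries lay above all day 3 libraries, and the d-SMG value of day 3 rests on 2 reads (95% counting interval 0.0204 to 0.607 CPM). The desmosomal cadherin Dsg3 was at 45.4, 3.95, 99.6, and 72.8 CPM and then at 44.3, 92.8, 204, and 144 CPM, and the hemidesmosome collagen Col17a1 at 140.0, 5.97, 329, and 200.1 CPM and then at 132, 231, 424, and 397 CPM. The kallikrein Klk7 of the cornified layer was at 8.06, 0.336, 34.1, and 18.4 CPM and then at 5.77, 27.9, 71.1, and 33.6 CPM. Krt2, a keratin of the upper epidermis, was lower in all 4 treatments, mostly in Alg with 11.4 and 1.33 CPM.

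Hair follicle genes differed widely between libraries of the same day. The list sum was 42.5, 33.4, 11220, and 3245 CPM on day 3 and 95, 3314, 8445, and 488 CPM on day 7. On day 3, 18 of the 30 genes in the control held fewer than 3 reads. In d-SMG 11 of 30 genes were at 0 reads on day 3, and the median log2 ratio of 5.94 became 4.92 with counts below 3 reads set to 3. In Alg all 30 were lower, with a median of −2.53, and without d-SMG the fitted median of 0.56 turned to −1.07. Krt72, a keratin of the inner root sheath, was at 0 reads on day 3 and 58.0 CPM on day 7 in d-SMG, and at 51.0 and 23.3 CPM in s-GAG. Shh, the growth signal of the follicle, was lower in all 4 treatments, at 1.88, 1.09, 7.86, and 8.44 CPM and then at 0.204, 0.620, 4.63, and 0.532 CPM.

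Proliferation genes moved in opposite directions between treatments. The 36 cell cycle genes had a fitted median of −0.02, which combines these directions. Their sums were 1059, 1185, 1757, and 1810 CPM on day 3 and 1456, 1635, 1493, and 1097 CPM on day 7. The median log2 ratio was 0.29 and 0.48 in control and d-SMG, where 24 and 29 of 36 were higher. In s-GAG and Alg it was −0.36 and −0.74, with 5 and 1 of 36 higher. Cyclin D1 (Ccnd1) was lower in all 4 treatments without overlap, at 39.7, 37.0, 47.2, and 42.0 CPM and then at 28.0, 31.2, 22.6, and 25.2 CPM, as was the cell cycle factor E2f2 from the genes above, at 17.4, 25.9, 18.0, and 17.8 CPM and then at 7.87, 10.9, 12.6, and 12.4 CPM. Of the 36, 6 were lower in all 4 treatments and 1 without overlap. The oxygen-sensing genes Hif1a and Egln3 took opposite courses in the control, with 75.9 and 317 CPM for Hif1a and 56.4 and 14.1 CPM for Egln3.

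The change of the control wound was also set against that of the 3 dressed wounds. A test of this difference in the 8 libraries, with 1 pair of libraries against 3, takes its spread from the dressed wounds alone and assumes that the control varies like them. It called 0 of 14912 genes (0%) at the FDR, and 493 (3.31%) had an unadjusted p below 0.05, a count that became 2721 without d-SMG, 204 without s-GAG, and 151 without Alg. DESeq2 was not run on this difference. The genes given here are the 5 with the smallest p in each direction, and their values describe these libraries, since the control has no replicate. Cxcl10, the interferon-induced chemokine, had the smallest p. It was at 51.0, 0.840, 7.46, and 0.683 CPM on day 3 and at 0.204, 1.19, 15.4, and 1.86 CPM on day 7, lower in the control and higher in all 3 dressed wounds. The 0.204 CPM of the control on day 7 are 3 reads (95% counting interval 0.0420 to 0.595 CPM), and the fitted difference in log2 change was −8.96. Ifit2, of the interferon list, was at 403, 17.1, 88.2, and 28.6 CPM and then at 35.8, 41.3, 117, and 39.2 CPM, Sectm1b at 34.1, 6.89, 16.2, and 14.4 CPM and then at 5.09, 15.2, 35.9, and 18.4 CPM, and both showed the same opposition. Apod, a lipid carrier, and Apol11a went from 39.1 to 4.21 CPM and from 106 to 14.5 CPM in the control, and their changes in the dressed wounds lay between −0.24 and 0.03 on the log2 scale.

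The 5 genes of the other direction were Tnc, Ptx3, Plod2, Tub, and Daam2. Tnc, the tenascin of granulation tissue, was at 23.6, 122, 188, and 98.8 CPM on day 3 and at 867, 155, 187, and 110.3 CPM on day 7. It was high in the control of day 7 alone, with a fitted difference in log2 change of 5.01. Ptx3, the pentraxin of innate immunity, was at 11.1, 116, 8.37, and 30.6 CPM and then at 274, 42.3, 7.21, and 34.1 CPM, and Plod2, the lysyl hydroxylase of collagen crosslinking, at 6.64, 26.1, 8.48, and 8.68 CPM and then at 66.0, 20.9, 11.9, and 10.2 CPM. Tub and Daam2 went from 0.584 to 8.35 CPM and from 19.6 to 120.3 CPM in the control.

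**Figure D5:**
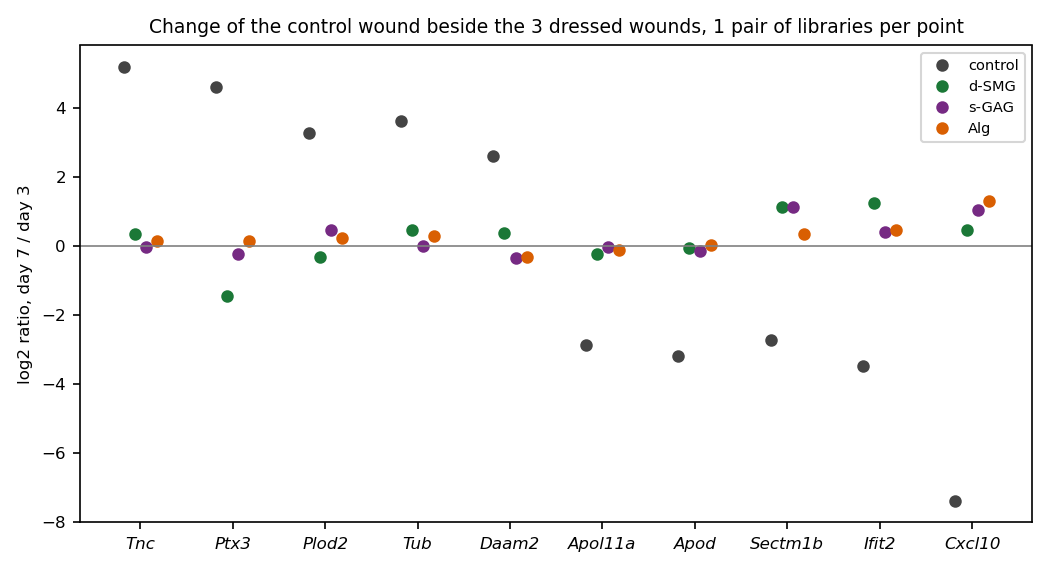
Log2 ratio of day 7 to day 3 (vertical axis) for the 5 genes a direction with the smallest p in the comparison of the control with the dressed wounds, 1 pair of libraries per point. The control points lie between 2.61 and 5.19 for the first 5 genes and between −7.38 and −2.72 for the last 5, and the dressed points between −1.46 and 1.32.

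Day 7 was also set against day 14. The same model called 0 genes for day 14 against day 7, with 433 at the unadjusted p, and 0 for day 7 against the mean of days 3 and 14, with 266. DESeq2 called 7 and 5 genes in these comparisons, which share the day 7 libraries. The collagen median was −0.76 and the hair follicle median 2.18 from day 7 to day 14.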

How the data were processed

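Stranded, rRNA-depleted libraries of wound tissue, 12 in all, were analyzed, 1 for each of 4 treatments on days 3, 7, and 14. The labels name bcl2fastq, FastQC, TopHat2, and edgeR without versions, and the genome build is not given in the sources used here. The authors deposited unnormalized read counts of 25620 genes and, for 25524 genes, FPKM values (reads relative to transcript length and sequencing depth). Each table holds 1 further column of values that matches no described sample, which was not used. Strand use in counting is not stated, so reads of overlapping antisense genes cannot be told apart.

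Counts of the genes kept by filterByExpr were scaled by TMM and fitted with the robust quasi-likelihood model of edgeR 4.0.16 in R 4.3.3 (treatment and day as terms, 12 libraries, 6 residual degrees of freedom, Benjamini-Hochberg FDR of 0.05). The SE of a log2 change was taken from the F statistic. Ratios within a treatment used log2 CPM with a prior count of 2. The change of the control against that of the dressed wounds was fitted in the 8 libraries of days 3 and 7, and its p-values only order genes. P-values measure the spread between treatments, since each library is 1 sample of its treatment and day. Counting intervals are exact (Clopper-Pearson, 95%) and cover counting error only. The scripts were tested on simulated data.

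The members, the 31 gene lists, and the rules were chosen with earlier results of these data known. Named genes were the 15 with the smallest p in each direction (mean of at least 1 CPM, no provisional symbol), up to 4 per list, 5 per direction of the control comparison, and the genes of the study's text. Alternatives were the 8 libraries alone, no treatment block, RLE factors or library size, other filters (no filter, or 50 reads in at least 4 libraries), a fit without robust, a log2 change of at least 1, DESeq2 1.42.0, limma 3.58.1 on log2(FPKM + 1) or log2(FPKM + 0.1), muscle or keratinocyte sums as covariates, and leaving out each library or treatment. Promoters came from the first entry of each symbol in RefSeq, GRCr8. Figures were drawn with matplotlib.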

Additional observations from a re-analysis of the deposited data

Results flagged for a closer look

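Within the 4 libraries of a day, the gap of the most distant library to its nearest neighbor, divided by the range on the log2 scale, was above Dixon's 95% critical value for 4 samples in 10 of the groups examined. Chance alone gives about 1 in 20 such groups, and here it was 10 of 266. On day 3 the d-SMG library was the lowest for Krt16 (0.9503), at 0.168 CPM, and for the differentiated and cornified keratinocyte list (0.866), at 12.8 CPM, and the highest for E2f2 (0.915), at 25.9 CPM. The s-GAG library of day 3 was the highest for Tnn (0.951), at 189 CPM, and the control library of day 3 was the highest for Tlr5 (0.927), at 14.9 CPM. On day 7 the control library was the lowest for Krt16 (0.875), at 40.2 CPM, and for Has1 (0.864), at 0.271 CPM, and the highest for Sox11 (0.865), at 2.71 CPM, and for Gabbr2 (0.9005), at 0.882 CPM. The s-GAG library of day 7 was the highest for Ifit2 (0.879), at 117 CPM.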

How the results depend on the processing

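The count of 0 genes for day 7 against day 3 held under each alternative of the FDR test, and at an unadjusted p below 0.05 it was 248, with 131 higher and 117 lower. That last count ranged from 85 (without the control treatment) to 906 (without the s-GAG library of day 3). It was 422 with no replicate block, that is with treatment left out of the model, 375 without a low-count filter, 155 with 50 reads in at least 4 libraries, 146 with unscaled library sizes, and 452 with DESeq2. DESeq2 called 7 genes for day 14 against day 7 and 5 for day 7 against the mean of the other days. The causes of these shifts between settings were not tested. Library size moved the median of all genes to 0.08.

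The direction of 102 named genes held in 1109 of 1131 values under the alternatives other than leaving out libraries, and it turned in 22. For the 5 genes per direction of the control comparison, this is the direction of the difference between control and dressed wounds. Most of the genes were chosen by their p in these same libraries, so a kept direction is no independent support. Ccl5 turned to 0.26 (8 libraries), 0.023 (no replicate block), 0.010 (RLE), 0.037 (library size), 0.10 (DESeq2), and 0.10 and 0.26 (FPKM). Il18 turned to 0.024 (library size) and to 0.032 and 0.028 (FPKM), and Cd163 to −0.15 (8 libraries), −0.67 (muscle covariate), and −0.10 and −0.13 (FPKM). With the muscle covariate Pdgfa turned to 0.21 and Mrc1 to −0.00873. With the keratinocyte covariate Col17a1 turned to −0.22, Acta1 to 0.057, Tlr5 to −0.094, Il10 to −0.24, Pdgfa to 0.39, and Pdgfb to 0.26. When libraries or treatments were left out the values spanned −0.85 to 1.46 for Ccl5, −0.48 to 0.87 for Cd163, −0.14 to 0.87 for Il10, −0.22 to 0.022 for Il18, −0.12 to 0.34 for Jak3, −0.33 to 5.09 for Krt72, −0.68 to 0.33 for Pdgfa, −0.45 to 0.11 for Pdgfb, −0.40 to 0.012 for Tgfb1, −0.19 to 0.29 for Tlr5, and −0.98 to 0.027 for Tnf. No list median shifted by more than the spread of its list between treatments. This limit cannot show that the medians are stable when a treatment is left out, because that treatment is itself part of the spread. The skeletal muscle median, −0.91 in the main fit, was −2.38 without Alg, and several medians changed sign. The interferon median turned to 0.14 without the control, and the skeletal muscle and hair follicle medians to 0.65 and −1.07 without d-SMG. The hair follicle median also turned to −0.16 with the muscle covariate. Other lists changed sign too. Without d-SMG the T and NK cell median went from 0.08 to −0.23, and the cytokine and chemokine median from 0.04 to −0.20. Without s-GAG the erythroid median went from −0.13 to 0.92, and the glycolysis and hypoxia median from 0.16 to −0.10. These are examples and not all the sign changes. Genes below about 1 CPM rest on few reads and are the least precise.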
